A study of Drosophila melanogaster with 212 samples.

Results

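The cells described here were octopaminergic neurons of the Drosophila melanogaster brain in which at least 1 read of nvy was found, set against octopaminergic neurons with none. They were chosen by 3 measured values. A cell was kept with at least 10000 counts and 500 genes with a read, was called octopaminergic with at least 100 CPM (a cell's counts scaled to the same total in every cell) of both Tdc2 and Tbh, and was a member with at least 1 nvy count. This rule took 53 cells. By group they were 13 of the 54 mutant female, 5 of the 51 wild-type female, 18 of the 56 mutant male and 17 of the 51 wild-type male cells. The depth filter kept 51, 48, 52 and 48 cells of these groups in the same order. The octopaminergic cells with no nvy count were 34 of the mutant and 35 of the wild-type female cells and 25 of the mutant and 21 of the wild-type male cells, and 1 cell with a value of 0.5 belonged to neither class. Some columns of 1 group were near-identical, and averaging them left 49 members (13, 5, 15 and 16 by group) and, as cells without nvy, 33, 35, 25 and 18, which were used below.

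The study sequenced RNA of single cells from nervy-mutant and wild-type flies of both sexes. Flies lived 15 to a vial up to day 6 after eclosion, and the cells were sorted by fluorescence from the brain as octopaminergic or tyraminergic neurons carrying a membrane-bound GFP reporter, one cell to a well. The labels name the genotypes only as mutant and wild type, without the allele or the driver of the reporter. Since the labels tie no cell to an animal, every group counted as 1 sample, and genotypes were not tested against each other within a sex.

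Nervy, the product of nvy, is the fly member of the ETO (MTG) family of transcriptional corepressors, which bring histone deacetylases and partner corepressors to DNA-binding factors. In fly motor axons it has also been described as an anchor for protein kinase A that links cyclic AMP to the plexin receptor of the guidance molecule Semaphorin 1a. Octopamine, the insect counterpart of noradrenaline, is made from tyrosine in steps catalysed by the tyrosine decarboxylase Tdc2, which gives tyramine, and the tyramine beta-hydroxylase Tbh, and it is loaded into vesicles by Vmat.

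The nvy gene (FBgn0005636, protein-coding) lies on chromosome 2R from 24275734 to 24291084 of the dm6 build, on the plus strand, and shares no exon bases with another annotated gene. Its level in the members had a median of 11.2 CPM and ranged between 0.53 and 75.3 CPM. Since these reads chose the members, the levels are a description. The lowest, median and highest member had 2.65, 8.70 and 45.01 CPM in mutant females and 0.53, 12.9 and 20.2 CPM in wild-type females. The corresponding values were 0.55, 7.80 and 41.1 CPM in mutant males and 0.57, 12.6 and 75.3 CPM in wild-type males. The stretch between 2.65 and 20.2 CPM was common to the ranges of all 4 groups.

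Many members sat close to the limit of the rule. Of the 49, 9 had exactly 1 nvy count and 11 had fewer than 3, while 21 had 10 or more and the highest had 59.5. The octopaminergic cell just outside had 0.5 counts. A count of 0 allows up to 3 counts, which at the median total of the cells without nvy corresponded to 3.54 CPM, and 9 members lay below that level. These limits cover counting error only. Of the other limits of the rule, the lowest member values were 794 CPM of Tdc2 and 529 CPM of Tbh, well inside the 100 CPM required.

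The cells outside the octopaminergic class place these levels. All 14 cells with at least 100 CPM of Tdc2 but under 100 CPM of Tbh (at most 62.1 CPM) held nvy reads, with a median of 97.5 CPM and a lowest value of 5.60 CPM. Their median total was 1010350 counts. Of the octopaminergic cells 30.4% held nvy (49 of 161 cells, exact binomial 95% interval 23.4 to 38.2%, median total 847802 counts). Of the 14 cells with under 100 CPM of Tdc2, 5 held it (35.7%, interval 12.8 to 64.9%), with a median of 7.14 CPM in those 5. Some of these 14 are near-identical columns, described below, that join a mutant and a wild-type male and were counted separately. They include a pair in which both columns held nvy. No cell type known to lack nvy was available, so the share that free RNA alone would give was not measured.

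**Figure D1:**
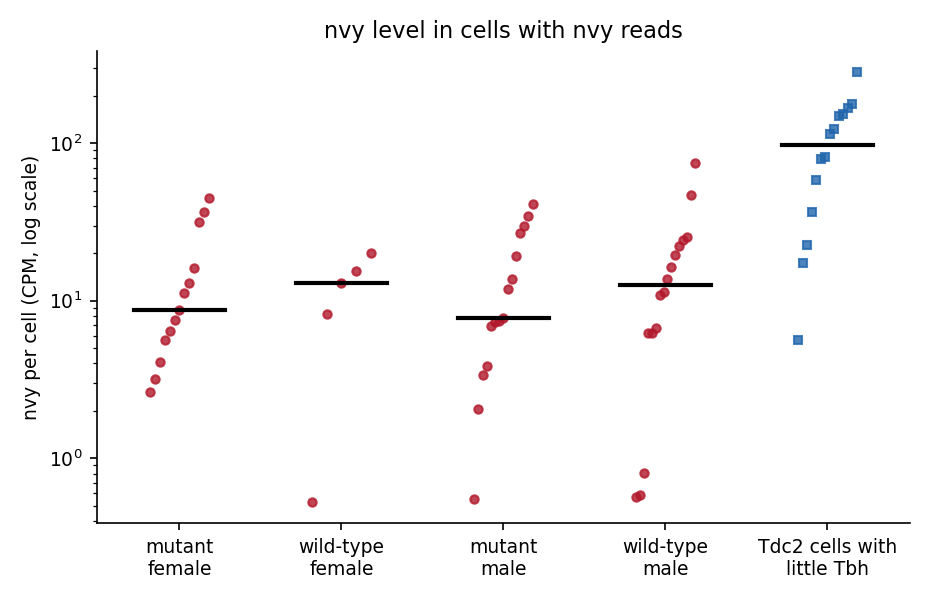
Level of nvy in each cell with nvy reads (CPM, log axis), with circles for octopaminergic members of the 4 groups, squares for the 14 cells with Tdc2 but little Tbh, and a bar at each median. The medians of the members lie between 7.80 and 12.9 CPM, and that of the cells with little Tbh is at 97.5 CPM.

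The share of octopaminergic cells with nvy was 28.3% in mutant females (13 of 46, interval 15.99 to 43.46%) and 12.5% in wild-type females (5 of 40, 4.19 to 26.8%). It was 36.6% in mutant males (15 of 41, 22.1 to 53.1%) and 47.1% in wild-type males (16 of 34, 29.8 to 64.9%). The intervals of mutant and wild type overlapped in both sexes, and they cover counting error only. After each cell was thinned to 200000 reads and shallower cells were left out, the shares were 26.8%, 11.8%, 33.3% and 43.8% in the same order, from 41, 34, 39 and 32 cells. Values were rounded with 0.5 up before thinning. The 13 of 39 mutant male cells with nvy after thinning therefore include the cell with 0.5 counts, which belonged to neither class.

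In males the order of the genotypes differed, by few cells, between stretches of the running number printed in the column headers. Among cells numbered 1 to 96 the share was 23.1% in mutant males (6 of 26) and 42.1% in wild-type males (8 of 19), and above 96 it was 60% in mutant males (9 of 15) and 53.3% in wild-type males (8 of 15). Exact intervals for numbers 1 to 96 were 8.97 to 43.6% in mutant and 20.3 to 66.5% in wild-type males. Above 96 they were 32.3 to 83.7% and 26.6 to 78.7%, so the male genotypes overlapped in both stretches. The 4 near-identical nvy pairs that join the male genotypes, described below, were all numbered above 96. Most octopaminergic cells of males numbered above 96 belonged to near-identical pairs. Without the cells of such pairs the share above 96 was not higher in mutant than in wild-type males, so the changed order rested on them. All mutant females and 36 of 40 wild-type females were numbered above 96, where their shares were 28.3% and 11.1%.

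**Figure D2:**
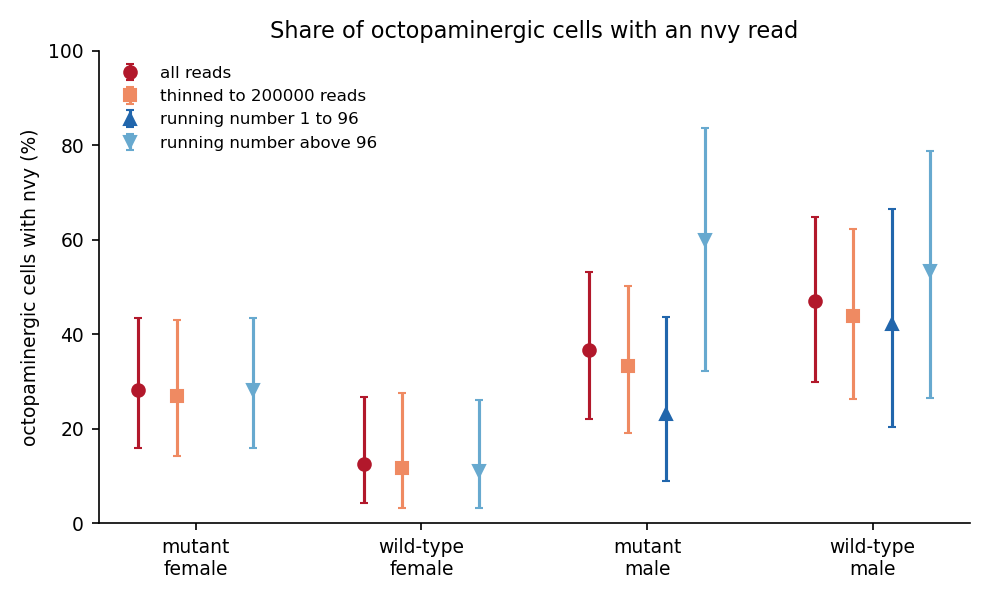
Percentage of octopaminergic cells with at least 1 nvy count by group, with exact 95% binomial intervals, for all reads, after thinning to 200000 reads, and for 2 stretches of running numbers (a stretch with fewer than 10 cells is not drawn). The shares of both male groups lie between 33.3 and 47.1% in all reads and after thinning. The order of the male genotypes differs between the stretches, with cells of near-identical pairs included.

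Near-identical columns allow the nvy call to be read again in the same profile. In all, 19 pairs of columns correlated at 0.972 to 0.999 (Pearson's r of log2(CPM + 1) over 7500 genes), against at most 0.907 between any other cells, with a median of 0.535. Of the 15 pairs of octopaminergic columns, 8 held nvy in both columns, 7 held it in neither, and 0 were split. Within the 8 pairs the nvy levels differed by 1.06-fold to 2.21-fold, with a median of 1.24-fold. However, 7 of the 15 pairs joined a mutant and a wild-type column, and 4 of those were nvy pairs of males. The labels do not say whether such a pair is 1 cell in 2 columns. If it is, the calls show technical repeat only, and 4 cells stand as members in both male genotypes, which are then not separate samples. Without all cells of such pairs the share with nvy was 25% in mutant males (8 of 32) and 45.8% in wild-type males (11 of 24).

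Total counts of the classes overlapped. The median total was 699991 counts in members and 634136 in cells without nvy of mutant females, and 773400 and 825660 counts in those of wild-type females. It was 935026 and 1082750 counts in mutant males and 1264010 and 1282860 counts in wild-type males. Totals of single cells ranged between 20875 and 3045780 counts. The difference averaged -38244 counts over the 4 groups (SD 88308) and was positive in 1 of 4 groups, with p = 0.5 in an exact two-sided sign-flip permutation test.

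More genes were read in the members at matched depth. Members were chosen by detection of a low-level gene, and a cell in which more genes are read can meet that rule more easily. The difference is therefore a description, and the test below cannot separate it from the choice of members. After thinning, a median of 5410 genes was read per cell in members and 5062 in cells without nvy of mutant females, and of 5492 and 5070 in those of wild-type females. The medians were 5358 and 5043 in mutant males and 5714 and 5241 in wild-type males. The members were higher in 4 of 4 groups, by 389.5 genes on average (SD 71.7, n = 4 groups), with p = 0.13 in the exact sign-flip permutation test, the smallest that 4 groups can give. Cells of both classes overlapped in every group. The difference was 416.5 genes without the cells of near-identical pairs, 213.9 without cells that held a read of the glial gene repo, and 174.6 among cells numbered above 96, where wild-type male members had 17.5 fewer genes than wild-type male cells without nvy.

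Both classes carried the octopaminergic and neuronal markers. Summed over the cells of a class, Tbh reached 16912 CPM in members and 15057 CPM in cells without nvy of mutant females, and 26268 and 15953 CPM in those of wild-type females. In males it reached 14757 CPM in members and 14054 CPM in cells without nvy of mutants, and 12822 and 13835 CPM in those of wild type. Vmat gave a log2 fold change of 0.02 (SE 0.07), Tdc2 one of 0.07 (SE 0.13) and Tbh one of 0.25 (SE 0.14). Tdc2 and Tbh were part of the rule for both classes and are described only. Over the members the rank correlation of nvy with Tdc2 was -0.06, with Tbh -0.10 and with Vmat -0.06, and that with total counts was -0.32 (n = 49 cells that share libraries and groups, given as a description). The neuronal markers (elav, nSyb, brp and the others of 8) summed to between 13894 and 16865 CPM in members and between 13223 and 15794 CPM in cells without nvy, with none of the 8 at 0.

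To compare the classes across genes, counts were summed over members and over cells without nvy in each group, and the 4 pairs of sums were fitted with edgeR's quasi-likelihood test with group as a block. Among the 5474 genes that averaged 20 CPM or more over the 8 sums, 0 passed a Benjamini-Hochberg adjusted p of 0.05 (0% of genes tested), and 4.71% had an unadjusted p under 0.05 (142 of these were lower). DESeq2 with the same block called 17 genes (0.311% of those tested), 8 higher and 9 lower, and limma on mean CPM per cell called 4, all higher. The genes fitted and described in this comparison therefore all missed the threshold of the edgeR test, and those below the 20 CPM were not fitted. A higher sum can come from more cells with the gene or from more reads in each, and the shares of cells given below speak to the first.

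The direction was then compared over the 4 groups. By direction alone, 2.32% of genes tested were higher in members in each group, also without the cell that held the most reads of the gene in each sum, and 5.52% (302 genes) were lower. The lowest p among the higher genes belonged to CG31814 (FBgn0051814, chromosome 2L from 13676860 to 13717320 on dm6, minus strand), named DIP-kappa by RefSeq, which belongs to the immunoglobulin-domain proteins that bind the Dpr surface proteins and take part in synaptic partner choice. CG31814 summed to 201.2 CPM in members and 70.1 CPM in cells without nvy of mutant females, and to 576 and 191 CPM in those of wild-type females. In males it reached 107 CPM in members and 28.8 CPM in cells without nvy of mutants, and 129 and 56.8 CPM in those of wild type. Its log2 fold change was 1.58 (SE 0.18, edgeR adjusted p = 0.058), and DESeq2 gave an adjusted p of 1.8e-12. Without the cells of near-identical pairs the log2 fold change of CG31814 was 2.01 with an edgeR adjusted p of 0.68. At least 100 CPM of it was found in 36.7% of members (18 of 49, interval 23.4 to 51.7%) and 14.4% of cells without nvy (16 cells, 8.47 to 22.4%).

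Another DIP gene followed. DIP-beta summed to 204.9 CPM in members and 117.5 CPM in cells without nvy of mutant females, 489.5 and 254.6 CPM in those of wild-type females, 154 and 57.2 CPM in those of mutant males, and 142 and 48.1 CPM in those of wild-type males. Its log2 fold change was 1.22 (SE 0.18, edgeR adjusted p = 0.23). The gene trn (tartan) encodes a leucine-rich repeat surface protein that acts in cell sorting and axon targeting, and it had a log2 fold change of 1.35 (SE 0.23, edgeR adjusted p = 0.43). Between 61.8 and 152.8 CPM of trn were summed in members and between 20.7 and 74.2 CPM in cells without nvy.

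The same direction held for Nep1 and sNPF. Nep1 encodes a neprilysin, a membrane protease that cleaves peptides, and had a log2 fold change of 1.32 (SE 0.23). The precursor gene of short neuropeptide F, sNPF, gave 1.77 (SE 0.34), with 236.1 CPM in members and 64.1 CPM in cells without nvy of mutant females and 297 and 178 CPM in those of wild-type females. It reached 137 CPM in members and 55.7 CPM in cells without nvy of mutant males, and 253.1 and 30.2 CPM in those of wild-type males. At least 100 CPM of sNPF was found in 38.8% of members (19 of 49) and 19.8% of cells without nvy (22 cells). CG15537, which RefSeq lists with the synonym crhbp, had a log2 fold change of 2.02 (SE 0.40) and was found at 100 CPM or more in 36.7% of members (18 of 49) and 10.8% of cells without nvy (12 cells). The other higher genes named by the rule were CG34351 (1.16), with -0.37 in wild-type males numbered above 96, and CG32354 (1.35). CG32354 gave 0.43 without the cells that held repo reads, and its log2 ratio in wild-type females was then -2.80. With all cells the wild-type female ratio was 1.80, and 1 cell held 80.8% of the CG32354 counts of the members.

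**Figure D3:**
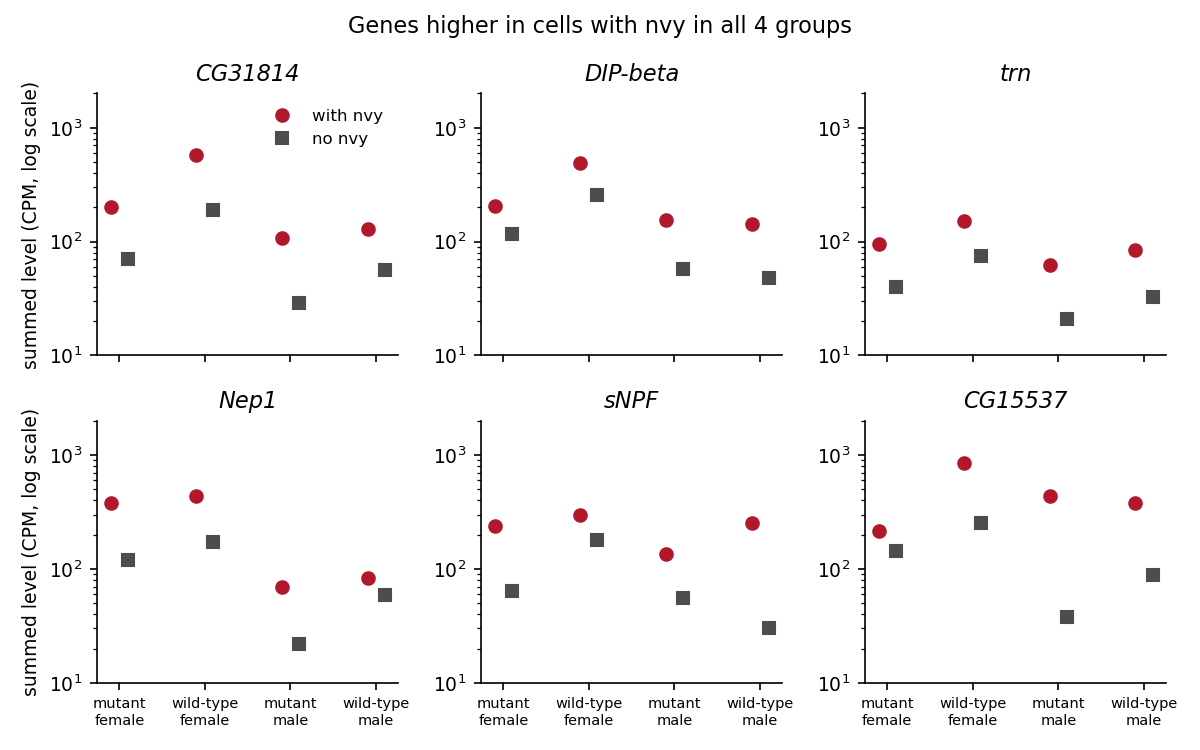
Summed level (CPM, log axis) of the 6 genes with the lowest p among those higher in all 4 groups, with circles for octopaminergic cells with nvy and squares for those without. The circle lies above the square in every group for each of the 6 genes, which were chosen for this direction, and the spread between groups is as wide as the step between classes for several of them.

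These sums rested on few cells, and the direction did not hold in every stretch of running numbers. A single cell held between 33.6 and 57.4% of the CG31814 counts in each of the 4 sums of members. Among mutant males the log2 ratio of CG31814 was 3.63 for cells numbered 1 to 96 and -0.41 above 96, and that of trn was 3.51 and -0.63. Nep1 in wild-type males gave -0.06 for cells numbered 1 to 96 and 3.05 above. DIP-beta and sNPF kept 1 direction in both stretches of both male genotypes. Without the cells of near-identical pairs the ratio of CG31814 was 3.16 in mutant and 0.85 in wild-type males, and that of Nep1 in wild-type males was -0.24. Without the cells that held repo reads the log2 ratios of CG31814 were 1.25 in mutant females and 1.08 in wild-type females, and 1.79 in mutant males and 1.70 in those of wild type.

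The 6 leading genes were found together in the same cells. At least 3 of CG31814, DIP-beta, trn, Nep1, sNPF and CG15537 reached 100 CPM in 30.6% of members (15 of 49, interval 18.3 to 45.4%) and 12.6% of cells without nvy (14 cells, 7.07 to 20.3%). By group this was 4 of 13 members and 6 of 33 cells without nvy in mutant females, 4 of 5 and 6 of 35 in wild-type females, 2 of 15 and 1 of 25 in mutant males, and 5 of 16 and 1 of 18 in wild-type males. The share was higher in members in each group, and the intervals of the 2 classes overlapped in all 4 groups and over all cells. Since the 6 genes were picked for their difference, these shares carry no test.

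Pairwise, the rank correlations between the 6 genes lay between 0.52 and 0.84 over the 49 members (median 0.69 of 15 pairs) and between 0.30 and 0.58 over the cells without nvy (median 0.41). They are descriptions over cells that share libraries. Of the 29 cells with at least 3 of the genes, 14 had no nvy read, which sets an upper limit and not an absence. The 6 such cells of mutant females had a median total of 261392 counts. The median nvy level was 12.9 CPM in members with at least 3 of the genes, 7.27 CPM in those with 1 or 2, and 13.8 CPM in the 18 members with none.

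**Figure D4:**
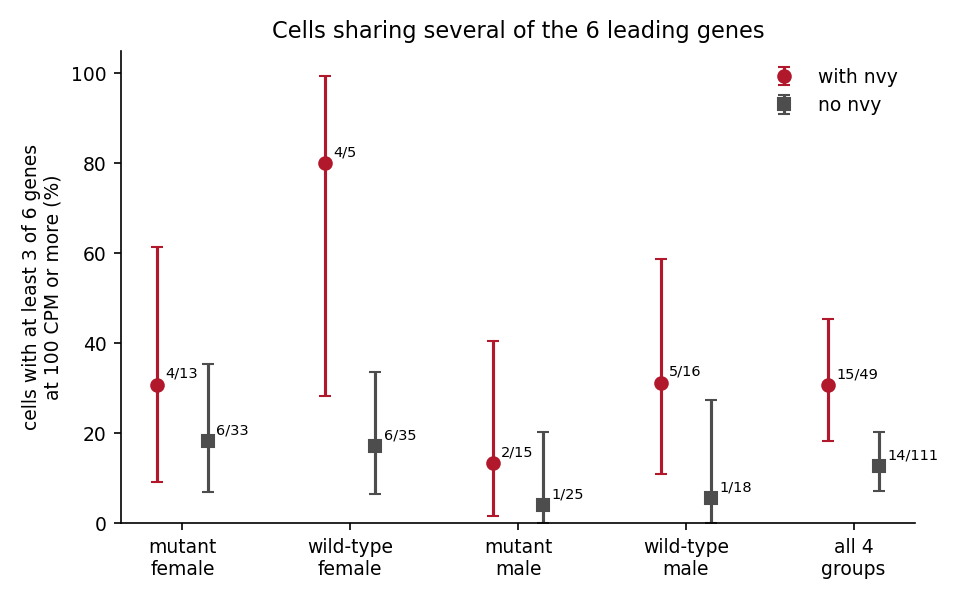
Percentage of octopaminergic cells with at least 3 of the 6 leading genes at 100 CPM or more, by group and over all groups, for cells with nvy (circles) and without (squares), with exact 95% binomial intervals and cell counts. Over all groups the share is 30.6% with nvy and 12.6% without.

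Other transmitter genes were followed in the same fit. VGlut, the vesicular glutamate transporter, summed to 850.2 CPM in members and 848.5 CPM in cells without nvy of mutant females, and to 1390 and 993 CPM in those of wild-type females. In males it reached 1261 CPM in members and 939 CPM in cells without nvy of mutants, and 1418 and 1013 CPM in those of wild type. The log2 fold change was 0.39 (SE 0.12, unadjusted p = 0.012, edgeR adjusted p = 0.97). All 49 members held at least 100 CPM of VGlut, as did 103 of the cells without nvy (92.8%, interval 86.3 to 96.8%). VGAT, the vesicular GABA transporter, had a log2 fold change of -0.25 (SE 0.25).

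The cholinergic genes ChAT and VAChT and the GABA enzyme Gad1 varied widely between the sums. ChAT summed to 0 and 8.55 CPM in members and cells without nvy of mutant females, 0.15 and 1.03 CPM in those of wild-type females, 49.2 and 1.13 CPM in those of mutant males and 54.05 and 2.69 CPM in those of wild-type males. A single cell held 63.6% of the ChAT counts of mutant male members and 49.5% of those of wild-type male members. ChAT and VAChT share exon bases, and both were below the level required for the fit. Gad1 lay between 0 and 181.5 CPM in members and between 18.3 and 50.2 CPM in cells without nvy. Its sum was higher in members in wild-type males only, and in mutant males it was 30.2 CPM in members and 48.8 CPM in cells without nvy. After thinning, Gad1 was read in 46.2% of members and 32% of cells without nvy of mutant males. The shares were 43.8% and 31.2% in wild-type males, 0% and 13.8% in mutant females, and 20% and 20.7% in wild-type females.

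Genes that work with Nervy were followed in 2 lists. In the list of Nervy partners and corepressors 14 of 17 genes were tested, 0 were called by edgeR, 0 had an unadjusted p under 0.05, and the median log2 fold change was -0.05, beside -0.02 over all 5474 genes tested. Rpd3, the deacetylase listed as HDAC1, gave -0.54 (SE 0.30), the corepressor scaffolds Sin3A and Smr gave -0.45 (SE 0.31) and 0.13 (SE 0.21), and da, the E-protein bHLH factor, gave -0.14 (SE 0.21). CtBP and ebi, both corepressor components, were lower in members in all 4 groups, with log2 fold changes of -0.13 and -0.32. These were 2 of the 14 genes tested, and 0 were higher in all 4 groups, beside 5.52% lower and 2.32% higher of all genes tested. In the list of semaphorin, plexin and protein kinase A genes 13 of 19 were tested, 0 had an unadjusted p under 0.05 and the median was -0.03. The ligand Sema1a gave -0.02 (SE 0.23) and its receptor PlexA 0.09 (SE 0.30).

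Among the other lists the counts at an unadjusted p under 0.05 were small. In axon guidance and adhesion, 53 of 66 genes were tested, 4 were higher and 1 lower at that level, beside 2.12% and 2.59% of all genes tested, and 5 were higher and 2 lower in all 4 groups, beside 2.32% and 5.52% of all genes. The higher ones included beat-Ic (1.45, SE 0.48) and beat-IIIb (0.94, SE 0.27), which encode surface proteins of the Beat family, and the lower one was side (-0.73, SE 0.26), which encodes a Sidestep protein that Beat proteins bind. The amine synthesis and loading list had 5 genes tested and the octopamine and tyramine receptor list 4, with 0 at that level in either. Of the neuropeptides 9 of 51 were tested, with sNPF higher and Dh44 lower at that level. Dh44, the diuretic hormone of the corticotropin-releasing family, summed to 1.64 CPM in members and 343 CPM in cells without nvy of mutant females, 0 and 483 CPM in those of wild-type females and 35.1 and 944 CPM in those of mutant males. In wild-type males it summed to 519 CPM in members and 212.5 CPM in cells without nvy.

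Of 30 voltage-gated and leak channel genes tested, 0 had an unadjusted p under 0.05, and of 61 oxidative phosphorylation genes also 0. Of 83 ribosomal protein genes 0 had one, while 1 was higher and 7 were lower in all 4 groups, beside 2.32% and 5.52% of all genes. Transcription factor lists held pdm3 (-0.81, SE 0.26), a POU factor, and usp (0.54, SE 0.21), a nuclear receptor partner, as the only homeodomain or POU and nuclear receptor genes at that level. In the sex differentiation list fru, which encodes transcription factors of courtship and aggression circuits, gave 0.78 (SE 0.24, unadjusted p = 0.011). Counts per gene do not separate the transcripts of fru, so no male-specific product was measured. The ratio of fru had no single sign, with -0.15 in mutant females and between 0.61 and 1.30 in the other 3 groups. A single cell held 87.8% of the fru counts of wild-type female members, and without the top cells the ratio there was -0.29.

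The genes lower in members had mixed functions. The lowest unadjusted p in this direction belonged to CG8745 and ogre, which encodes an innexin, a gap junction protein found in glia. CG8745 summed to 0 CPM in members and 4.16 CPM in cells without nvy of mutant females, 0.54 and 5.79 CPM in those of wild-type females, 2.73 and 30.2 CPM in those of mutant males and 22.2 and 120.7 CPM in those of wild-type males. Next came vap, a Ras GTPase-activating protein, with a log2 fold change of -0.90 (SE 0.20, edgeR adjusted p = 0.70), and between 37.8 and 93.7 CPM in members and 65.9 and 191 CPM in cells without nvy. The others were sano (-1.94), drosha (-1.39), the helicase gene CG6418 (-0.83), and Mkp and CG34140 (-0.71 each), which share nearly all exon bases and count as 1 locus. Several of these ratios had the other sign in males numbered above 96. There ogre gave 2.36 in mutants and 2.28 in wild type, drosha 1.02 and 1.17, and sano 0.44 in mutants.

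Of the 10 glial markers 5 were tested, and 0 had an unadjusted p under 0.05. Together the 10 summed to 181.2 CPM in members and 98.5 CPM in cells without nvy of mutant females, and to 181.3 and 149 CPM in those of wild-type females. In males they summed to 881 CPM in members and 4258 CPM in cells without nvy of mutants, and to 1567 and 2837 CPM in those of wild type. Few cells carried these sums, since among mutant male cells without nvy the highest had 112395 CPM and the median was 161 CPM. In wild-type females the median cell had 58.3 CPM among members and 95.8 CPM among cells without nvy, the reverse of the order of the sums. The defining glial gene repo was at 0 CPM in members and 0.44 CPM in cells without nvy of mutant females, 0.54 and 0.45 CPM in those of wild-type females, 0.39 and 18.1 CPM in those of mutant males, and 12.9 and 56.9 CPM in those of wild-type males. Without the cells that held repo reads, the log2 ratio of CG8745 in wild-type males was 0.80 and that of drosha 0.70, and ogre was lower in members in all 4 groups, with ratios between -2.67 and -1.27. The 11 fat body and haemocyte markers summed to at most 134.1 CPM in members and 208.1 CPM in cells without nvy, and the 9 photoreceptor markers to at most 211.2 and 166 CPM. The part of these cells' reads in the results was not tested beyond that removal.

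The difference between members and cells without nvy was compared between the sexes in the same fit. By edgeR, 2 of 5474 genes passed the threshold (0.0365%), Adh and Adhr, with DESeq2 calling 51. Adh encodes the alcohol dehydrogenase, and its exons are nearly all shared with the reading frame of Adhr, so the pair counts as 1 locus. Adh summed to 120 CPM in members and 474 CPM in cells without nvy of mutant males, and to 348 and 1036 CPM in those of wild-type males. In females it reached 114 CPM in members and 57.2 CPM in cells without nvy of mutants, and 65.2 and 34.2 CPM in those of wild type. The male minus female difference of the log2 fold change was -2.80 (SE 0.27, edgeR adjusted p = 0.0489). Without the cells that held repo reads it was -0.80 (edgeR adjusted p = 0.95), and 0 genes passed. In males numbered above 96 the log2 ratios of Adh were 1.08 in mutants and 0.80 in wild type, against -2.37 and -1.67 in males numbered 1 to 96. The potassium channel gene Irk2 came next, with a difference of -5.14 (SE 0.64, edgeR adjusted p = 0.14). A single cell held 95.7% of its counts in mutant female members and 96.8% in mutant male members. In cells without nvy 1 cell held 99.5% in wild-type females and 91.5% in wild-type males. In the remaining sums the share was between 52.2 and 70.4%. The ratio of Irk2 in wild-type females was 1.86 with all cells and -2.70 without the cells that held repo reads.

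**Figure D5:**
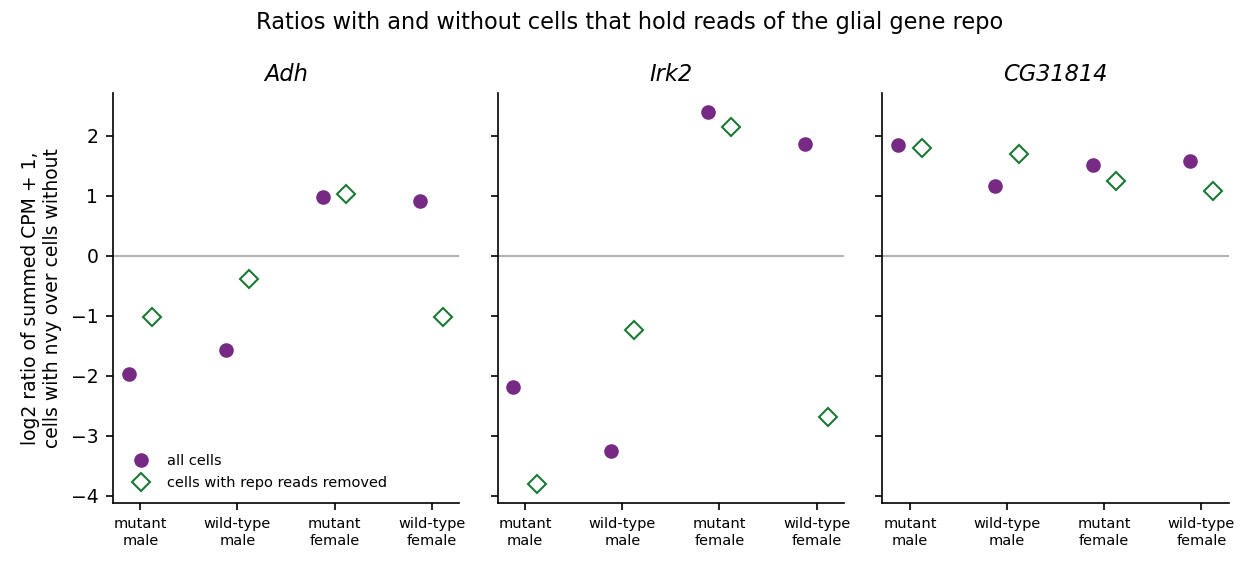
Log2 ratio of summed CPM + 1, cells with nvy over cells without, for Adh, Irk2 and CG31814 in each group, with all cells (circles) and after removal of cells with repo reads (diamonds). With all cells Adh lies below 0 in males and above 0 in females, and after the removal it lies below 0 in all groups but mutant females.

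The same difference was compared between mutant and wild type. By edgeR 0 of 5474 genes passed (0%), 64 were higher and 74 lower at an unadjusted p under 0.05, and DESeq2 called 2. The lowest p belonged to CCHa1, the gene of a neuropeptide hormone, which was summed at 0 CPM in members and 178 CPM in cells without nvy of mutant females and at 15.7 and 0 CPM in those of wild-type males. In both, 1 cell held all CCHa1 counts. The others were Tsp5D, of the tetraspanin family, and phtf, with a difference of 2.01 (SE 0.48).

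Within the members, nvy itself was compared between genotypes without a test. Its summed level was 14.3 CPM in mutant females (Poisson 95% interval 12.1 to 16.8) and 7.92 CPM in wild-type females (5.90 to 10.4), a log2 ratio of 0.78 in CPM + 1. In males it was 12.8 CPM in mutants (11.1 to 14.7) and 13.6 CPM in wild type (11.9 to 15.4), a log2 ratio of -0.08. A single cell held 38.9% of the counts in mutant female members and 45.6% in wild-type ones, and without the top cell of each sum the female ratio was 0.34. In males the ratio was 0.46 without the cells of near-identical pairs, 0.66 for cells numbered 1 to 96 and -0.54 above 96. The labels do not name the mutation, so whether these reads could report it is not known.

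Genotype ratios of other genes within members had little in common between the sexes. Of 5404 genes that averaged 20 CPM or more in members, 39 (0.722%) were at least 2-fold higher in mutant than in wild-type members in both sexes, 35 (0.648%) were at least 2-fold lower in both, and 103 were past 2-fold in opposite directions. Both sexes gave the same sign in 49.1% of genes. Among the higher genes, Sym, which encodes the 3'-end processing scaffold Symplekin, summed to 33.1 CPM in mutant and 4.69 CPM in wild-type female members, and to 46.2 CPM in mutant and 9.14 CPM in wild-type male members. In males the log2 ratio of Sym was 4.78 for cells numbered 1 to 96 and 0.23 above 96. The near-identical columns that join the male genotypes were all numbered above 96. Without the cells of near-identical pairs the male ratio of Sym was 4.51. The other higher genes named by the rule were CG17221, CG2909, CG1703 and CG9915, with log2 ratios between 1.68 and 3.71. In males CG9915 gave 3.40 and 0.14 in the same stretches of running numbers. In wild-type female members CG17221, CG2909 and CG1703 summed to only 1.08, 1.92 and 3.69 CPM. A single cell held 100%, 88% and 62.5% of those counts, in the same order.

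The lower genes named were CG10189 (Ctu2 in RefSeq), alrm, CG1718 (Abca3 in RefSeq), trx and CG8944. The histone methyltransferase gene trx gave 33.1 CPM in mutant and 98.2 CPM in wild-type female members, and 27.1 CPM in mutant and 83.3 CPM in wild-type male members. A single cell held 56.9% of the trx counts in wild-type female members. In males the log2 ratio of trx within members was -2.55 for cells numbered 1 to 96 and -0.35 above 96. In cells without nvy the ratio of trx had no single sign, with log2 values of 0.90 in females and -0.88 in males. The astrocyte marker alrm was lower in mutant than in wild-type members, with log2 ratios of -2.15 in females and -3.19 in males. A single cell held 99.5% of its counts in wild-type female members, and the male ratio of alrm was -3.92 for cells numbered 1 to 96 and 0.33 above 96. In females the ratio of alrm without the top cells was -0.43.

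Over the 49 members, the genes whose level followed nvy most closely were CG15440, elgi, CG12605, sky and MED26. Their rank correlations with nvy CPM were 0.46, 0.45, 0.45, 0.44 and 0.42, the highest of 5251 genes, of which the lowest was -0.55 and the median -0.05. The gene sky encodes a GTPase-activating protein of synaptic vesicle traffic, and MED26 a Mediator subunit. Of the exon bases of sky, 76.1% are shared with other annotated genes, so its counts may include reads of those. By group CG15440 had 0.69 in mutant females and -0.2 in wild-type females (5 cells), and 0.60 in mutant males and 0.23 in those of wild type. CG12605 alone of the 5 was positive in all 4 groups. These values describe cells that share libraries and carry no test.

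Markers of other octopaminergic subtypes were spread over both classes. At least 100 CPM of NPFR, the receptor of neuropeptide F, was found in 14.3% of members (7 of 49) and 14.4% of cells without nvy (16 cells). The POU factor genes nub and pdm2 were found at that level in 3 and 4 of 49 members and in 8 and 15 of the cells without nvy. NPFR was found in a lower share of members than of cells without nvy in both female groups and in a higher share in both male groups. The Iroquois gene ara was found in 26.5% of members (13 of 49, interval 14.9 to 41.1%) and 15.3% of cells without nvy (17 cells, 9.18 to 23.4%), with a higher share in members of 3 groups and a lower one in those of wild-type males. The gene salr was found at 100 CPM or more in 16.3% of members (8 of 49) and 15.3% of cells without nvy (17 cells). Its share was higher in members of both mutant groups and lower in those of both wild-type groups. For fru the share was 76.9% of members and 57.6% of cells without nvy in mutant females, and 80% and 60% in wild-type females. In males it was 33.3% of members and 20% of cells without nvy for mutants, and 37.5% and 11.1% for wild type. The intervals of fru overlapped in each group.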

How the data were processed

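The deposited table holds unnormalized exon counts that, per the file headers, were made with analyzeRepeats.pl of HOMER on dm6 with 1 transcript kept per gene, and per the submitters' processing notes FastQC and edgeR were also used. The aligner and strand setting are not given in the sources used here. Per the labels' protocols, Nextera XT libraries were sequenced with paired 75-base reads on a NextSeq 500. The deposited values are multiples of 0.5 and 56.2% of those above 0 are whole, so they were handled as estimated counts and sums were rounded for the fits, where whole counts had been planned for. For thinning, the values of each cell were rounded with 0.5 up.

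The members and gene lists were chosen with earlier results of these data known. Columns of 1 group with a Pearson r of at least 0.95 of log2(CPM + 1) were averaged. Counts were summed per class and group (8 sums of between 6504800 and 34094888 counts) and fitted with edgeR 4.0.16 (quasi-likelihood, TMM, group as a block, since members and cells without nvy of 1 group form a pair, 5474 genes averaging 20 CPM or more). DESeq2 1.42.0 and limma 3.58.1 in R 4.3.3 were alternatives, and Python 3.11.15 with SciPy 1.17.1 was used for the rest. The fits were tested on simulated data. Ratios used a pseudocount of 1. The edgeR test gives no standard error, so each SE is the absolute log2 fold change divided by the square root of the F statistic. The 4 groups were handled as 4 samples. With group as a block, p-values measure how the difference between the classes varied over the groups, not how far the groups lay apart. Near-identical columns that join mutant and wild type stayed in the sums, so these samples may share cells. No doublet caller was run. Shares have exact Clopper-Pearson and sums exact Poisson intervals at 95%. Reads without molecular identifiers are not independent molecules. Coordinates are from the files and an annotation of the same build, whose positions match.

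Genes were named by a rule. It took genes called by edgeR with 1 direction in all 4 groups also without the top cell, filled to 8 per direction by the lowest p. It also took a fixed set (nvy, amine, transmitter, sex and glial markers and Nervy partners), the 5 genes most correlated with nvy over members, up to 5 per direction for mutant over wild type within members, and 3 per interaction. Other genes of a list were named for an unadjusted p under 0.05 or 1 direction in all 4 groups, after their values were seen.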

Additional observations from a re-analysis of the deposited data

Results flagged for a closer look

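Of 47 sets of 4 group values checked for a value far from the other 3, 3 were found, and chance flags about 1 in 20 such sets. The log2 ratio of VGlut between members and cells without nvy was 0.0028 in mutant females, against 0.42 to 0.49 in the other 3 groups. That of PlexA was 0.9057 in wild-type males, with the other 3 groups between -0.33 and -0.14. The median Tdc2 level of members minus that of cells without nvy was -2512.27 CPM in wild-type males and above 0 in the other 3 groups. The difference between members and cells without nvy itself differed between males and females for Adh (-2.8043 on the log2 scale) and Adhr (-2.7229), which are 1 locus, and it was -0.80 and -0.72 without cells that held repo reads.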

How the results depend on the processing

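The 8 sums give 0 genes past the adjusted threshold by edgeR between members and cells without nvy, and 0 with no replicate block in place of the pairing within a group (67 genes higher and 81 lower at an unadjusted p under 0.05), 0 with each group left out in turn, and 0 with other scalings, lower filters, thinned members, repo cells removed, near-identical pairs removed or cells numbered above 96. The count was 1 with members of at least 10 CPM of nvy, 1 with a filter of 100 CPM, 1 with every column as deposited, 4 with limma on mean CPM per cell and 17 with DESeq2. In the genotype comparison of that difference DESeq2 called 2 genes and edgeR 0. In the sex comparison edgeR called 2 genes, and 0 with members of at least 10 nvy counts, 0 with cells of at least 500000 counts and 0 without repo cells, while DESeq2 called 51. Over the alternatives the adjusted p of CG31814 ranged between 1.8e-12 and 1 and its log2 fold change between 0.98 and 2.05.

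The share of cells with at least 10 nvy counts was 10.87% in mutant and 5% in wild-type females. In males it was 14.63% for mutants and 23.53% for wild type. With at least 10 CPM these were 13.04%, 7.5%, 17.07% and 29.41%. Above number 96 the share with at least 1 nvy count was 60% in mutant males (9 of 15) and 53.3% in wild-type males (8 of 15), with cells of near-identical pairs included. The log2 ratio of nvy between mutant and wild-type female members was 0.3338 by mean CPM per cell and 0.343 without the top cells. In males it was 0.4633 without near-identical pairs and 0.657 for numbers 1 to 96, the opposite sign of the value over all cells, and -0.5355 above 96. The difference in genes per cell was 478.62 without thinning, 174.62 above 96 and 213.88 without repo cells. The cause of these changes was not tested. Stretches of running numbers, repo removal for shares, genes per cell and the comparisons by sex and genotype, and the shares of cells with several leading genes were chosen after seeing the data. With 4 groups and 5 wild-type female members, depth and cell number limit every value above.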
